A study of Mus musculus with 6 samples.

Results

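The genes described are 10 mammary luminal and milk differentiation genes: Stat5a, Prlr, Gata3, Elf5, Tfap2c, Cited1, Csn3, Csn2, Wap and Muc1. They were chosen by name, and each was read from its brightest probe set among those annotated with exactly 1 gene symbol. Of the 10 genes, 9 had such a probe set, out of 19938 genes in all, and no probe set was annotated with Prlr, so the prolactin receptor was not analysed here. Each of the 9 had a single probe set. The cells were 4T1, an established mouse mammary carcinoma line, seeded at 750000 per 10 cm dish in DMEM with 10% FCS. After 24 h the medium was renewed with 500 nM TKI258, or with its vehicle DMSO, for 16 h in the same serum-containing medium. TKI258, also called dovitinib, inhibits FGF, VEGF and PDGF receptor tyrosine kinases. RNA came from separate dishes of this line, labelled biological replicates 1 to 3 in each group, and each dish gave 1 Affymetrix array. The labels list no prolactin, glucocorticoid or added insulin, the hormones that cultured mammary cells usually need to make milk proteins, and no transgene or mutation introduced for the study.

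In the mammary gland, prolactin binds its receptor and the kinase JAK2 phosphorylates the transcription factors STAT5A and STAT5B, which then switch on milk protein genes in alveolar luminal cells. GATA3, a zinc finger factor, is required to form and keep luminal cells, and ELF5, an ETS family factor, drives the alveolar lineage together with STAT5. TFAP2C, or AP-2 gamma, and the co-activator CITED1 are also expressed in luminal cells. The caseins and whey acidic protein are the secreted products, and MUC1 is a mucin of the apical, lumen-facing membrane. An expression array measures the mRNA of these factors and says nothing of their phosphorylation or protein.

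The promoters below show the sequence just before the start of 3 of these genes, chosen because their products mark the end of the pathway, 2 milk proteins and the apical mucin. They are RefSeq sequences of build GRCm38.p6, given 5′ to 3′ on the gene's strand, from 250 to 11 bases before the start. Capitals mark a match, on either strand, to a STAT word (TTCNNNGAA), a GATA word (AGATAA), an AP-2 word (GCCNNNGGC) or an ETS word (CCGGAAG).
Csn2, chr5:87699436-87699675, minus strand: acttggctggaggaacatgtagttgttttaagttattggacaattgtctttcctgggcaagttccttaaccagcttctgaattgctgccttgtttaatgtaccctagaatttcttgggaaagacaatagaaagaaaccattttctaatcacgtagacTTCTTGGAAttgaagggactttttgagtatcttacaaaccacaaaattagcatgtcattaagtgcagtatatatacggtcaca
Wap, chr11:6638660-6638899, minus strand: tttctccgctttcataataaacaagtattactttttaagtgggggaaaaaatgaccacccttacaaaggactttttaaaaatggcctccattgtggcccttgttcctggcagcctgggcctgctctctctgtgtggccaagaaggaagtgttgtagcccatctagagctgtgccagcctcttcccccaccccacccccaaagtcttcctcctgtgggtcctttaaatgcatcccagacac
Muc1, chr3:89228806-89229045, plus strand: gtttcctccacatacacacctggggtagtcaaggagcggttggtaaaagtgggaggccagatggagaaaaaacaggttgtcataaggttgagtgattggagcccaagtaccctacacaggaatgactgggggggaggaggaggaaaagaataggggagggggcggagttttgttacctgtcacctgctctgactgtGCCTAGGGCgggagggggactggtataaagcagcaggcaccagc
The Csn2 window held the STAT word TTCTTGGAA, which begins 93 bases before the start, and the Muc1 window held the AP-2 word GCCTAGGGC, which begins 54 bases before it. The Wap window held none of the 4 kinds of word. Over the 250 bases before the most upstream listed start, 8 of the 10 genes had an entry, and Csn3 and Tfap2c had none. Among those 8, Csn2 alone held a STAT word, and Gata3 and Muc1 alone held AP-2 words, 3 in Gata3 and 1 in Muc1. The windows of Stat5a, Elf5, Wap, Prlr and Cited1 held no match, and no window of the 8 held the GATA or the ETS word. The RefSeq table held 32851 windows of 250 bases, counted over every listed start and not only the most upstream of each gene. Of these, 7.02% held a STAT word, 9.99% a GATA word, 13.7% an AP-2 word and 6.91% an ETS word. The words of different kinds did not overlap in these windows. These matches describe letters only, and binding was not measured.

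Of the 9 measured genes, 3 were higher after TKI258 (Stat5a, Gata3 and Muc1), 3 were lower (Csn3, Tfap2c and Cited1) and 3 did not pass the test (Elf5, Csn2 and Wap). The test was limma's moderated test with the Benjamini-Hochberg adjustment over all 19938 genes and a threshold of 0.05 on the adjusted p. Of all genes, 27% passed it, 14.4% higher and 12.6% lower, so a share of 66.7% in a set of 9 chosen with earlier results known is a description. The median log2 change of the 9 genes was 0.01, beside 0.01 for all genes. In the 6 genes that passed, the DMSO and TKI258 arrays did not overlap, which was true of 40.2% of all genes. The 3 genes with a mean signal above 5 (Stat5a, Gata3 and Cited1) all passed, beside 44.2% of all genes that bright, and 2 genes (Stat5a and Csn3) passed with a change of at least 1 in size, beside 2.15% of all genes. Values are log2 signals, so a difference of 1 is a doubling. The table has no detection calls, and log2 signals of different genes come from different probes and are not compared with each other. Because RNA of whole dishes was measured, fewer cells that express a gene and less of its RNA per cell cannot be told apart.

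**Figure D1:**
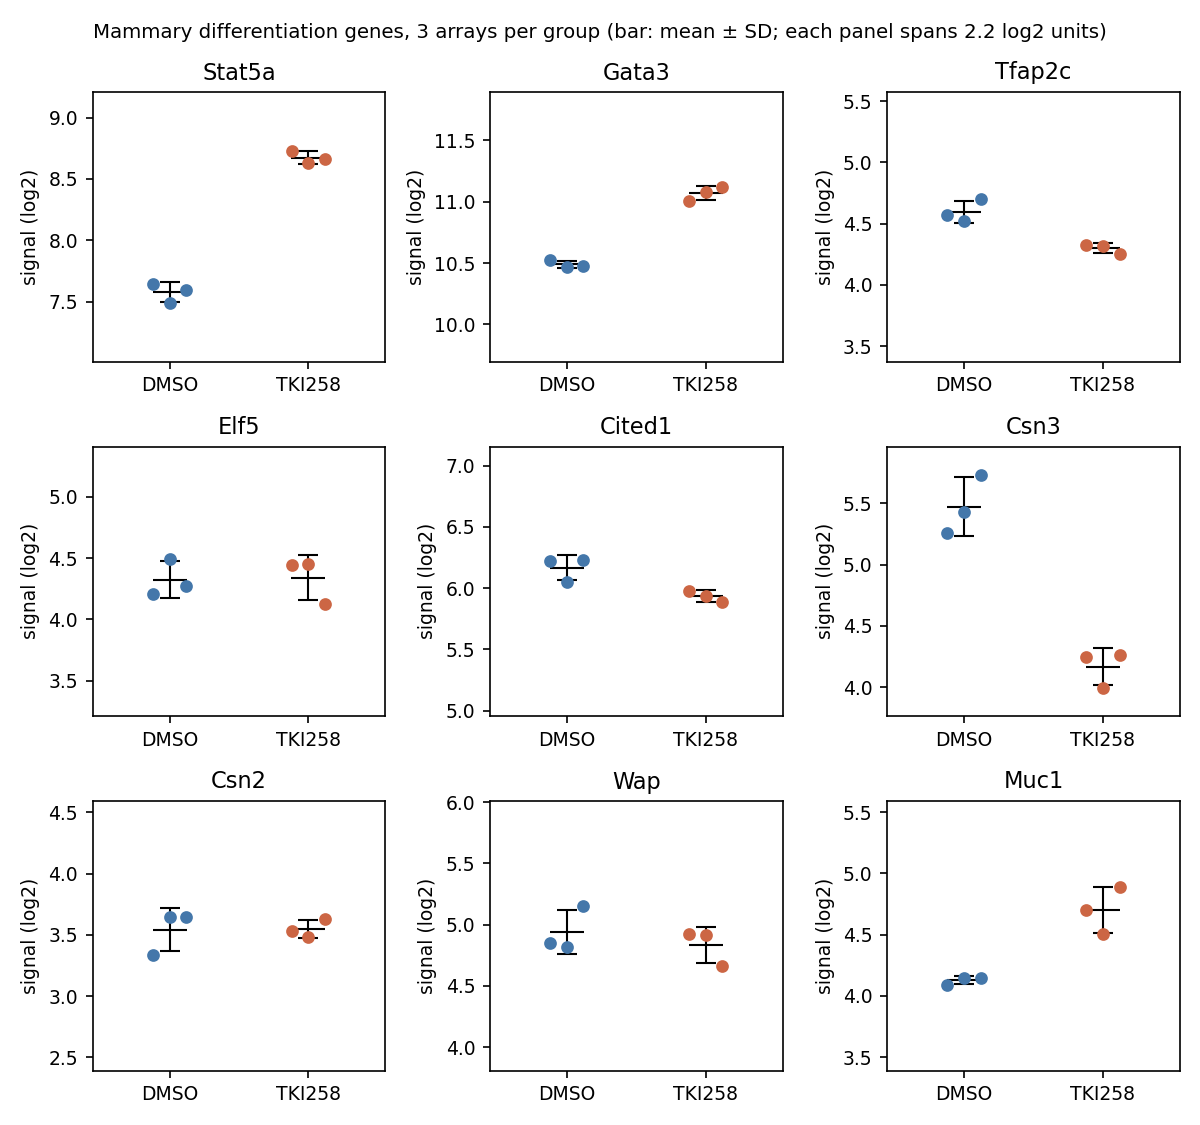
Log2 signal (vertical axis) of each measured mammary gene in the 3 DMSO arrays (blue) and the 3 TKI258 arrays (orange), with the mean and SD as bars and the same span in each panel. The groups are apart in Stat5a, Gata3, Tfap2c, Cited1, Csn3 and Muc1 and overlap in Elf5, Csn2 and Wap.

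Stat5a, the STAT most used by prolactin in the mammary gland, had log2 signals of 7.65, 7.49 and 7.60 in DMSO and 8.73, 8.63 and 8.66 in TKI258. All 3 TKI258 arrays lay about 1 unit above all 3 DMSO arrays. The change was 1.10 (SE 0.07, n = 3 per group, adjusted p = 7.56e-06 in limma), or 2.14-fold, which was the 329th largest change in size among the 19938 genes. Stat5b encodes the closely related STAT5B and lies next to Stat5a in the genome. Its signals were 7.55, 7.53 and 7.64 in DMSO and 7.95, 7.81 and 7.79 in TKI258, and it rose by 0.28 (SE 0.07, adjusted p = 0.0164 in limma). The interval of the Stat5a change, 0.94 to 1.25 at the 95% level, lay above that of Stat5b, 0.12 to 0.44, and the difference between these changes was not tested. The Stat5b call was lost without DMSO replicate 1 (adjusted p = 0.0650) and without DMSO replicate 2 (adjusted p = 0.0665), over a range of 0.00563 to 0.0665 in 14 alternatives. Both coding sequences are similar, and how well the probes of each gene tell them apart was not tested.

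Stat3 lies on the other side of Stat5a. It encodes the STAT that acts in mammary involution, the return of the gland to rest after weaning. It had 9.36, 9.38 and 9.40 in DMSO against 10.15, 10.28 and 10.22 in TKI258, a rise of 0.84 (SE 0.06, adjusted p = 2.16e-05 in limma). Of the 5 protein-coding genes on each side of the Stat5b and Stat5a pair, all 10 were measured, 3 rose and 1 fell. These 4 were among the 8 neighbours with a mean above 5, a share of 50% beside 44.2% of all genes that bright. Besides Stat3 the genes that rose were the lysosomal enzyme gene Naglu, by 0.69, and Ghdc, by 0.36, while the potassium channel gene Kcnh4 fell by 0.31. The Ghdc call was lost without DMSO replicate 3 (adjusted p = 0.0541), and that of Kcnh4 with the replicate block (adjusted p = 0.0518) and without any 1 array other than DMSO replicate 1 (adjusted p = 0.0563 to 0.122). The genes around Stat5a were looked at after their values were seen.

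Around Stat5a, the list of prolactin, JAK2 and STAT5 signalling genes had 18 measured members, of which 8 rose and 2 fell. This list and those below were chosen with earlier results of these data known, so their shares are descriptions. The median log2 change of this list was 0.08, and 55.6% of it passed, against 27% of all genes. Of its 15 members with a mean above 5, 66.7% passed, against 44.2% of all genes that bright. The largest rises after Stat5a were in Nmi, which encodes a STAT-interacting protein, by 0.87 (SE 0.06, adjusted p = 1.61e-05), and in Cebpb, a C/EBP factor needed for alveolar development, by 0.73 (SE 0.09, adjusted p = 0.000322). The STAT5-induced feedback genes Cish and Socs2 rose by 0.42 and 0.52. Jak2, the receptor-bound kinase, rose by 0.28, and Nr3c1, the glucocorticoid receptor gene, by 0.30. Cish had 5.14, 5.31 and 5.46 in DMSO and 5.81, 5.66 and 5.71 in TKI258. Socs2 had 7.83, 7.68 and 7.84 against 8.31, 8.30 and 8.31. In neither gene did the groups overlap. The other SOCS genes listed did not pass, with Socs1 at -0.05 and Socs3 at -0.07. The tyrosine phosphatase genes Ptpn2 and Ptpn1, whose products dephosphorylate JAK and STAT proteins, fell by 0.32 and 0.26. The Ptpn2 call was lost when its probe sets were averaged (-0.13, adjusted p = 0.210). The Ptpn1 call was lost without DMSO replicate 1 or 3 or TKI258 replicate 1 or 2, with adjusted p between 0.0889 and 0.121. The growth hormone receptor gene Ghr, of the same receptor family as Prlr, was at -0.02, and the hormone genes Prl and Gh were at -0.12 and 0.05, none past the threshold. Cish, Socs2, Jak2, Nr3c1 and the genes that did not pass were named after their values were seen.

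Gata3 had log2 signals of 10.52, 10.47 and 10.47 in DMSO and 11.01, 11.08 and 11.12 in TKI258. The spread within each group was small beside the gap between them. It rose by 0.58 (SE 0.06, adjusted p = 0.00015 in limma), or 1.50-fold. Elf5 had 4.21, 4.49 and 4.27 in DMSO and 4.44, 4.45 and 4.13 in TKI258, and the groups overlapped. Its log2 change was 0.02, with a 95% interval of -0.23 to 0.26 (adjusted p = 0.933 in limma), so with 3 arrays a group a change of either sign inside that interval was not excluded. All 6 of these values lay below the array medians of 4.97 to 5.04 over all probe sets, where a probe set may carry little specific signal.

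Tfap2c had 4.57, 4.53 and 4.70 in DMSO against 4.33, 4.32 and 4.25 in TKI258, with every TKI258 array below every DMSO array. It fell by 0.30 (SE 0.07, adjusted p = 0.0108 in limma), again below the array medians. Tfap2a, which encodes the related AP-2 alpha, was named after its values were seen and rose by 0.28 (adjusted p = 0.0163), a call lost without DMSO replicate 1 or 3 or TKI258 replicate 2 (adjusted p = 0.0589 to 0.063). Cited1 had 6.22, 6.05 and 6.23 in DMSO and 5.98, 5.94 and 5.89 in TKI258, a narrow gap. Its fall of 0.23 (SE 0.07, adjusted p = 0.0416 in limma) was lost without DMSO replicate 1 or 3 or without any of the 3 TKI258 arrays, at adjusted p of 0.0560 to 0.149. It was also lost with the replicate number as a block (adjusted p = 0.0563) and with eBayes trend and robust (adjusted p = 0.0567). The related co-activator gene Cited4, also named after its values were seen, rose by 0.41, a call lost without DMSO replicate 2 or 3 (adjusted p = 0.0794 and 0.0597) and with renewed quantile normalization (adjusted p = 0.0574).

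The list of luminal transcription factors had 21 measured members, with 8 higher, 2 lower (Tfap2c and Cited1) and 11 not past the threshold. Its median log2 change was 0.09, and 47.6% of it passed, or 60% of its 15 members with a mean above 5. Elf3, an epithelial ETS factor gene, rose most, by 0.92 (SE 0.09, adjusted p = 9.3e-05), with 5.65, 5.53 and 5.86 in DMSO and 6.62, 6.52 and 6.67 in TKI258. Esr1, the estrogen receptor alpha gene, rose by 0.50 (SE 0.09, adjusted p = 0.00318), and its partner factor gene Foxa1 by 0.25 (adjusted p = 0.0184). The Foxa1 call was lost without DMSO replicate 1 or 2 or TKI258 replicate 1 (adjusted p = 0.0554 to 0.0708). The progesterone receptor gene Pgr, an estrogen target in the gland, was at -0.16 and did not pass (adjusted p = 0.191). Of 8 measured hormone-sensing paracrine genes, 1 rose and the other 7 did not pass in limma. That was 12.5%, or 20% of the 5 with a mean above 5, beside 27% of all genes and 44.2% of those that bright. The gene that rose was Id2, an inhibitor of helix-loop-helix factors that alveolar development needs, by 1.12 (SE 0.07, adjusted p = 9.87e-06). Tnfsf11, which encodes RANKL, was at 0.09 and Wnt4 at 0.11, both named after their values were seen.

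Csn3 encodes kappa-casein, the casein that keeps milk micelles in suspension. Its log2 signals were 5.26, 5.43 and 5.73 in DMSO and 4.25, 4.00 and 4.26 in TKI258. All DMSO arrays lay above the array medians and all TKI258 arrays below them. Csn3 fell by 1.30 (SE 0.12, adjusted p = 7.13e-05 in limma), or 2.47-fold, the largest change of the 9 genes and the 195th largest in size of all genes. A log2 change into the dim range can understate a fall. Csn2, which encodes beta-casein, had 3.34, 3.65 and 3.64 in DMSO and 3.54, 3.48 and 3.63 in TKI258. Its groups overlapped, with a log2 change of 0.01 and a 95% interval of -0.21 to 0.22 (adjusted p = 0.969). Wap, the whey acidic protein gene, had 4.85, 4.82 and 5.15 in DMSO and 4.93, 4.91 and 4.67 in TKI258, again overlapping. Its log2 change was -0.10, with a 95% interval of -0.35 to 0.14 (adjusted p = 0.561). All 6 values of Csn2, the gene with the STAT word printed above, lay below the array medians.

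No measured genomic neighbour of Csn3 passed the test. On mouse chromosome 5 the 5 casein genes and the 5 protein-coding genes on each side of them, with the genes between, made 18 genes, of which 15 were measured. Of all genes 27% passed, and of those with a mean above 5, 44.2%. Of the 5385 genes that passed, 4961 were that bright, so dimmer genes passed far less often than 27%. Of the 15 genes here, only Csn3 passed the threshold. The other 14 had log2 changes of -0.13 to 0.22, adjusted p of at least 0.137, and log2 signals of 2.31 to 3.73 in all 6 arrays. Among them, the other 4 caseins had changes of -0.11 (Csn1s1), 0.01 (Csn2), 0.10 (Csn1s2a) and 0.09 (Csn1s2b). Odam and Cabs1, which lie near Csn3, were at -0.06 and -0.07. The difference between Csn3 and these genes was not itself tested, and at such low signals a change in them could go unseen.

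**Figure D2:**
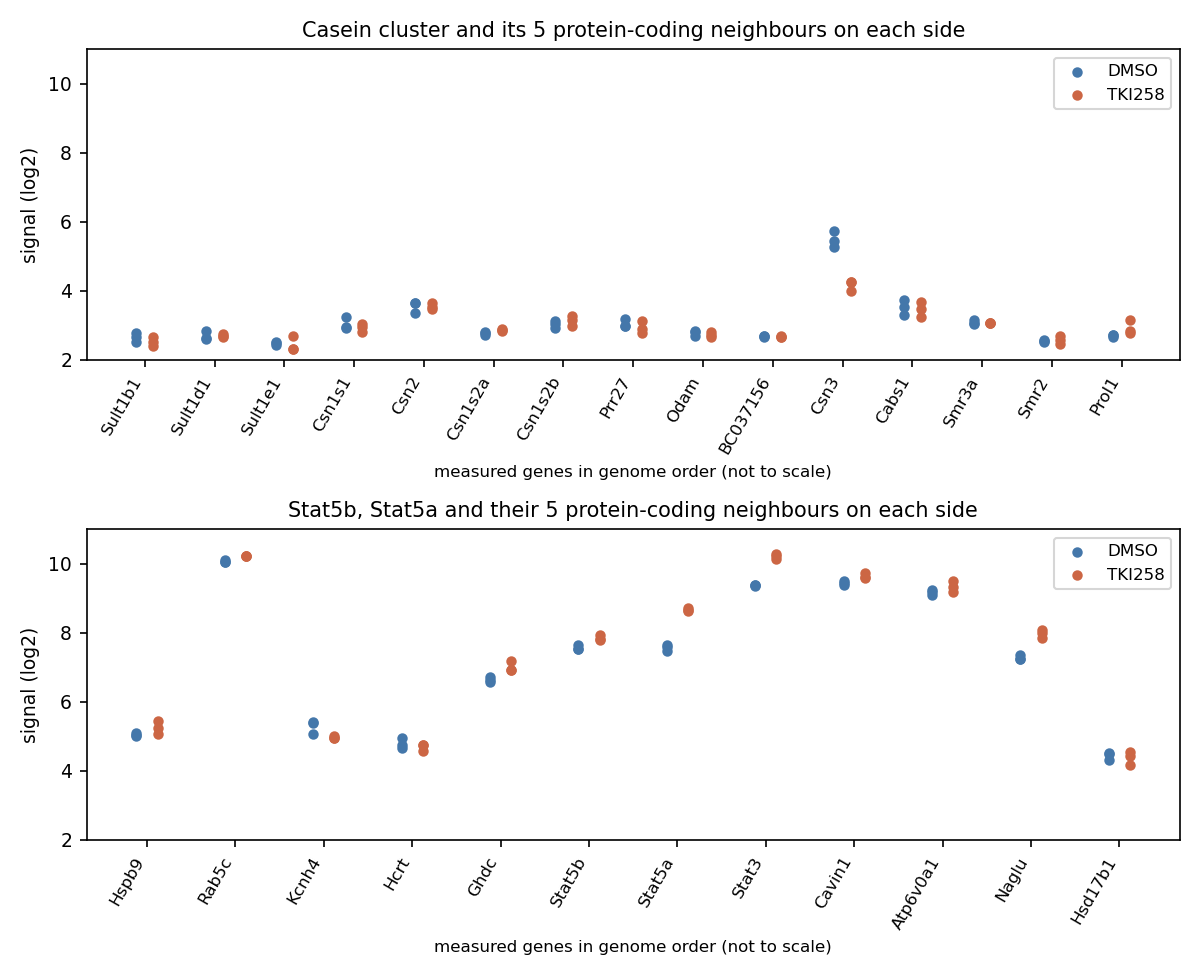
Log2 signal (vertical axis) in the 3 DMSO arrays (blue) and 3 TKI258 arrays (orange) for the measured genes of the casein cluster and its neighbours (top) and for Stat5b, Stat5a and their neighbours (bottom), in genome order. Csn3 is the only gene of the top panel past the threshold, at -1.30, while Stat5b, Stat5a and Stat3 are all higher in the bottom panel.

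Over the whole list of secreted milk proteins, 12 genes were measured and Csn3 alone passed, 8.33% of them beside 27% of all genes. The other 11 had log2 changes of -0.11 to 0.17. The lowest adjusted p among them was 0.142, for the lactoperoxidase gene Lpo at 0.17. All 12 had a mean over the 6 arrays below 5, and the list median was 0.03. Of all genes with a mean above 5, 44.2% passed. Of the 5385 genes that passed among all 19938, 4961 were among the 11236 with a mean above 5. Dimmer genes thus passed far less often than 27%, and 8.33% is not read as a low share for genes this dim.

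Muc1 had log2 signals of 4.09, 4.15 and 4.15 in DMSO and 4.70, 4.51 and 4.89 in TKI258. All TKI258 arrays lay above all DMSO arrays, and the SD was 0.19 in TKI258 against 0.03 in DMSO. Muc1 rose by 0.57 (SE 0.09, adjusted p = 0.00168 in limma), or 1.49-fold, and all 6 values lay below the array medians. The list of milk fat globule and secretory activation genes, to which Muc1 belongs, had 15 measured genes. Of these 5 rose and 1 fell, with a median of 0.05. Past the threshold were 40%, beside 27% of all genes. Of its 7 members with a mean above 5, 71.4% passed, beside 44.2% of all genes that bright. Xdh, the xanthine oxidoreductase that coats milk fat globules and has other roles in purine breakdown, rose by 1.68 (SE 0.10, adjusted p = 4.72e-06). Its signals were 8.80, 8.55 and 8.49 in DMSO against 10.19, 10.42 and 10.27 in TKI258. Plin2, which coats lipid droplets, rose by 0.70 and Mfge8, the milk fat globule protein lactadherin, by 0.46. The water channel gene Aqp5 rose by 0.34. The glucose transporter gene Slc2a1, which feeds lactose synthesis in lactation, fell by 0.75. Btn1a1, butyrophilin, which partners Xdh on the globule membrane, was at 0.10 and did not pass (adjusted p = 0.308). Mfge8, Aqp5 and Btn1a1 were named after their values were seen.

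**Figure D3:**
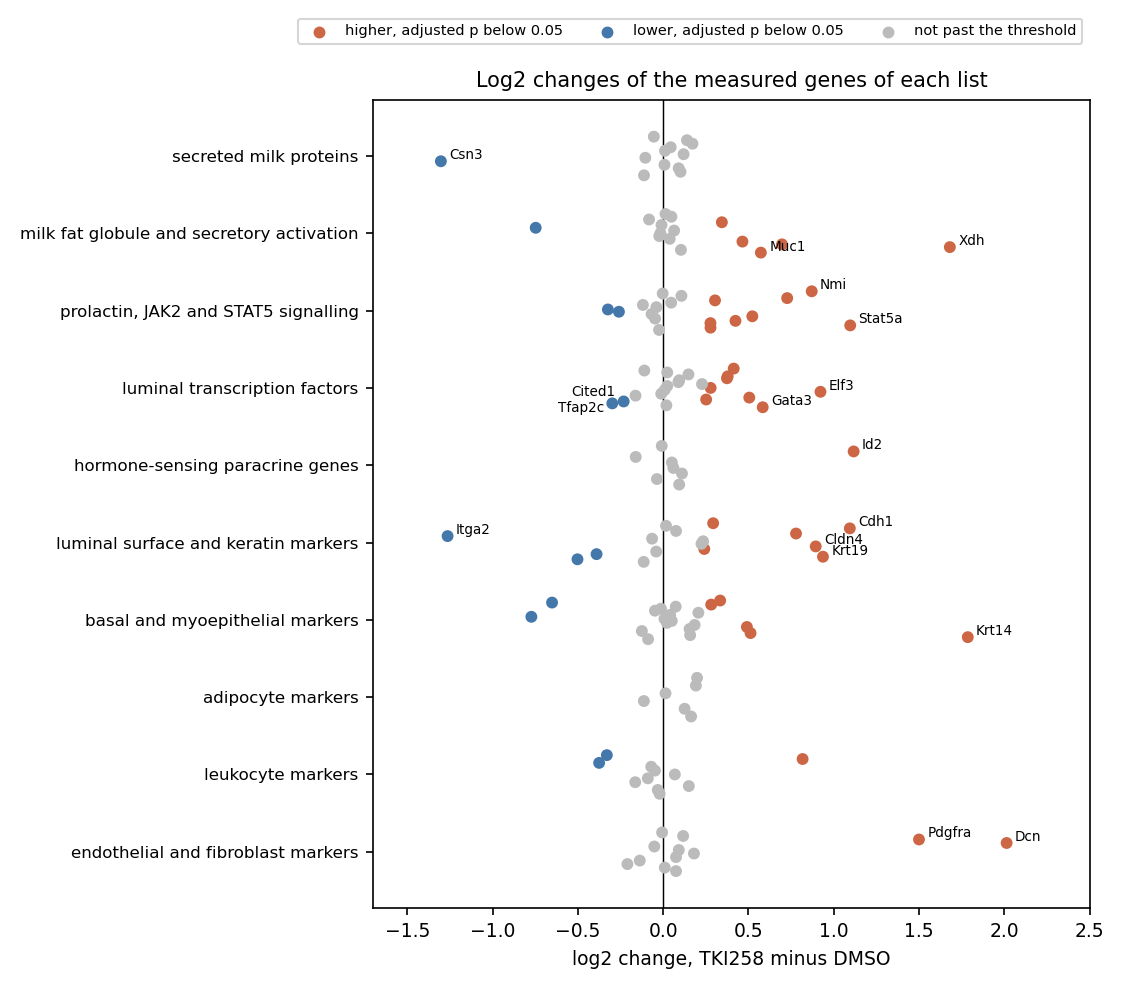
Log2 change, TKI258 minus DMSO (horizontal axis), of each measured gene, with 1 row of points per list, coloured by whether it passed limma's adjusted p of 0.05 as higher (orange) or lower (blue) or did not pass (grey). The secreted milk protein row has Csn3 at -1.30 and all its other genes grey. The signalling row has 8 of 18 genes higher and the luminal factor row 8 of 21, each with 2 lower. Of all genes, 14.4% were higher and 12.6% lower. The rows also differ in brightness: 0 of 12 milk genes had a mean above 5, against 15 of 18 and 15 of 21.

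Markers of luminal and basal cells both included genes that rose. Of 16 luminal surface and keratin markers, 6 rose and 3 fell, with a median of 0.15. Past the threshold were 56.2%, beside 27% of all genes. Of the 12 with a mean above 5, 75% passed, beside 44.2% of all genes that bright. Among the rises, that of Cldn3 was lost in 9 of 14 alternatives. The E-cadherin gene Cdh1 rose by 1.09, the keratin gene Krt19 by 0.94 and the claudin gene Cldn4 by 0.89. The collagen receptor gene Itga2 fell by 1.26 and the simple-epithelial keratin genes Krt18 and Krt7 by 0.50 and 0.39, while Krt8, the partner of Krt18, was at -0.11 and did not pass. Itgb3, a marker of luminal progenitors, was named after its values were seen and rose by 0.78. Of 20 basal and myoepithelial markers, 5 rose and 2 fell, with a median of 0.06. That was 35%, beside 27% of all genes, or 70% of the 10 with a mean above 5, beside 44.2%. The basal keratin gene Krt14 rose by 1.79 (SE 0.18, adjusted p = 8.77e-05), from 5.35, 5.44 and 5.78 to 6.98, 7.25 and 7.70. The smooth muscle actin gene Acta2 rose by 0.51 and the basal factor gene Trp63 by 0.49, while the integrin gene Itga6 fell by 0.65 and Procr by 0.77. Krt5, the usual partner of Krt14, was at -0.09 and did not pass.

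The signals of cell type markers are given beside the label of the line, as a description: a mean of 5 lies near the array medians and is no detection limit, and sums over probe sets follow the brightest of them. Of 10 luminal epithelial markers, 9 had a mean signal above 5, Cldn7 lying just below, and their linear signals summed to 11206.7 to 12077.6 in DMSO and 11592.4 to 11911.1 in TKI258. Without Krt18, which fell, the sums ran from 8576.6 to 9201.3 in DMSO and from 9656.3 to 10080.4 in TKI258. Of the 10, 4 rose and 2 fell, where 44.2% of all genes with a mean above 5 passed. The rise of Cldn3 by 0.24 (adjusted p = 0.0274 in limma) was lost in 9 of 14 alternatives. Of 6 basal markers, 3 had a mean above 5 (Krt14, Acta2 and Trp63) and 3 below it (Krt5, Krt17 and Cnn1), and the 3 brighter genes were those that rose. Their summed linear signals ran from 168.1 to 183.0 in DMSO and from 290.3 to 377.6 in TKI258, and without Krt14 from 124.6 to 133.3 and from 158.7 to 169.0. Vim, the vimentin gene of the basal list, had a mean of 13.05 in DMSO and 13.00 in TKI258 and did not pass. Of 11 measured leukocyte markers, Cd68 alone had a mean above 5. It rose by 0.82, while S100a8 and Fcer1g fell by 0.38 and 0.33. These were 27.3% of the 11, beside 27% of all genes, though genes with a mean not above 5 passed less often than that. The summed linear signals of the 11 ran from 238.4 to 245.7 in DMSO and from 273.2 to 353.9 in TKI258, and without Cd68 from 134.4 to 140.0 and from 128.8 to 130.9. The defining leukocyte gene Ptprc was at a mean of 3.76 in DMSO and 3.73 in TKI258. Of 12 endothelial and fibroblast markers, 2 rose, Pdgfra by 1.50 and Dcn by 2.01, and 10 did not pass. That was 16.7%, or 20% of the 5 with a mean above 5, beside 27% of all genes and 44.2% of those that bright. Dcn rose from a mean of 3.77 in DMSO, below the array medians, to 5.79 in TKI258. The summed linear signals of the 12 ran from 612.5 to 643.0 in DMSO and from 1225.4 to 1300.4 in TKI258. Pdgfra carried most of that difference, with a mean linear signal of 321.5 in DMSO and 909.3 in TKI258, and without it the sums ran from 298.2 to 308.1 and from 347.2 to 366.4. The defining endothelial gene Pecam1 was at 3.70 and 3.77. Of 6 adipocyte markers, 1 with a mean above 5, 0 passed in limma, and 1 had an unadjusted p below 0.05. Of all genes 27% passed, and a smaller share of those with a mean not above 5. Retn at 0.20 and Cidec at 0.19 were the nearest to passing. The summed linear signals of the 6 were 112.3 to 120.5 in DMSO and 121.4 to 133.0 in TKI258. The part of these markers in the mammary gene values was not tested. Of 9 measured housekeeping genes, B2m rose by 0.31 and Hprt and Tbp fell by 0.43 and 0.28. They were 33.3% of the 9, which all had a mean above 5, beside 44.2% of all genes that bright. The Tbp call was lost without replicate 1 or 2 of either group (adjusted p = 0.0562 to 0.0742).

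For each gene that passed, the 3 genes with the nearest pattern were found by the root mean square distance over the 6 arrays, after each gene's DMSO mean was subtracted. With groups this far apart such a match mostly reflects an equal change. For Stat5a they were Mtss2, Gpr146 and Wdr19, at distances of 0.040, 0.041 and 0.048 log2 units. For Gata3 they were Ajuba, Cdk19 and Bbs9, at 0.022 to 0.023. For Csn3 they were Csf3, the G-CSF gene, at 0.10, the cell cycle factor gene Mybl2 at 0.11 and the carbonic anhydrase gene Car12 at 0.13. For Muc1 they were Pccb, Oxsm and Rbis, for Tfap2c Gramd4, Limk1 and Rnf217, and for Cited1 Arhgap32, H2bc18 and Eef2kmt.

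Across the alternative settings the calls of Stat5a, Gata3, Csn3 and Muc1 held wherever the gene was tested. Stat5a ranged from 1.05 to 1.13 and Gata3 from 0.56 to 0.63, each over 14 alternatives, while Csn3 ranged from -1.41 to -1.17 and Muc1 from 0.48 to 0.67, each over 13. Elf5, Csn2 and Wap changed sign in some alternatives and passed the threshold in none of those run.

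**Figure D4:**
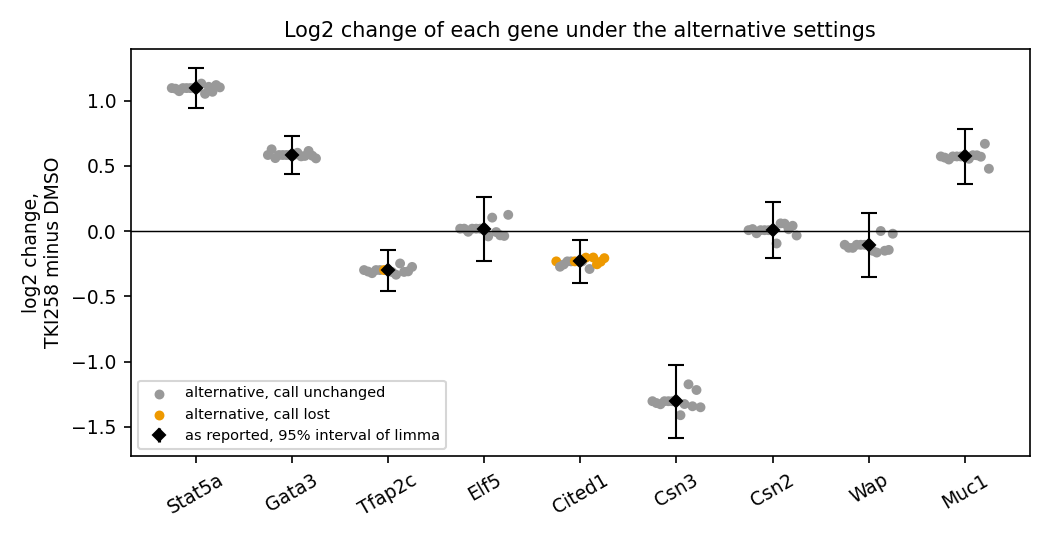
Log2 change, TKI258 minus DMSO (vertical axis), of each measured mammary gene as reported (black diamond, with limma's 95% interval) and under each alternative (grey where the call was unchanged, orange where it was lost). Stat5a, Gata3, Csn3 and Muc1 stay far from 0, whereas Cited1 has 8 orange points and Tfap2c 1, at the stricter adjusted p of 0.01 that is also among those of Cited1.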

How the data were processed

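The 6 arrays were grouped by their titles, 3 per condition. The value table the authors deposited gives a log2 signal for each of 35557 probe sets on each array; the log2 scale was inferred from the values. Per the submitters' processing notes, RMA, affy and limma were used, with no role or version named. RMA compresses the changes of dim probe sets, and its common distribution removes any change shared by every gene. Names came from the platform annotation of 2016, with 21789 probe sets of 1 symbol, 1621 of several and 12147 unnamed there. Each gene was its brightest probe set by mean over all arrays.

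The groups were compared in limma 3.58.1 (R 4.3.3; lmFit, eBayes) over 19938 genes, two-sided, with Benjamini-Hochberg adjustment, a threshold of 0.05 and no filter. The p-values measure the spread between dishes of 1 line. Array correlations were 0.997 to 0.998 within groups and 0.988 to 0.99 between them. On simulated data the test recovered 5 of 50 genes changed by 0.25, 45 of 50 changed by 0.5 and 50 of 50 changed by 1, with 12 false calls among 19738 unchanged genes. The simulation left all but few of the 19938 genes unchanged, whereas 5385 passed in the data. The adjustment was thus stricter on p in the simulation, and its recovery of small changes does not carry over to these data. The members, gene lists and tests were chosen with earlier results of these data known. Named were the 10 genes, up to 3 rises and 3 falls past the threshold per list (the 2 smallest adjusted p where none passed), Stat5b, the casein neighbourhood and the nearest patterns; any other gene was named after its values were seen. Alternatives were a replicate block, leaving out each array, repeated quantile normalization, median centring, dropping genes whose mean was not above 5, averaging probe sets, eBayes trend and robust, an adjusted p of 0.01, and single tests of probe sets. The gene table of GRCm38.p6 gave gene order alone. Of the 160 list genes, 148 were measured.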

Additional observations from a re-analysis of the deposited data

How the results depend on the processing

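The number of mammary genes called higher was 3 in 13 of 14 alternatives and 2 among genes with a mean above 5. The number called lower, 3 as reported, was 1 among genes with a mean above 5, where 3 of the 9 genes were left to test, and 1 at an adjusted p below 0.01, where Csn3 remained. Leaving out each array in turn gave 3 to 3 higher and 2 to 3 lower. Among the mammary, list and neighbouring genes, none past the threshold in the reported fit or an alternative changed sign between them. The median change of all genes stayed between -0.01 and 0.02. Same-numbered arrays had deviations correlating at 0.02, 0.05 and 0.15 between the groups, so the numbers were not taken as pairs; with the replicate number as a block 5364 genes passed against 5385, and of the mammary genes the Cited1 call alone was lost. All 6 genes with a mean below 5 are limited by dim signal, and 3 arrays per group limit the precision.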
